A study of Mus musculus with 14 samples.

Results

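The YAP-TEAD mechanosensing genes described here were 10 genes named by symbol, out of 49315 genes in a count table of mouse left ventricle. They are the coactivators Yap1 and Wwtr1 (TAZ), the DNA-binding factor Tead1, the vestigial-like cofactors Vgll2, Vgll3 and Vgll4, the angiomotin relative Amotl2, and the load-induced genes Ankrd1, Cyr61 (CCN1) and Ctgf (CCN2). Their positions (GRCm38) are chr9:7931999-8004596 (Yap1), chr3:57455649-57575910 (Wwtr1), chr7:112679318-112906807 (Tead1), chr10:52022502-52028471 (Vgll2), chr16:65815257-65866368 (Vgll3), chr6:114860628-114969994 (Vgll4), chr9:102716672-102733418 (Amotl2), chr19:36111961-36120099 (Ankrd1), chr3:145646976-145649981 (Cyr61) and chr10:24595442-24598683 (Ctgf). All 10 were among the 15292 genes that passed the filter on low counts. The list was chosen with results of these libraries known: Ankrd1, Cyr61, Ctgf and Vgll2 were selected on their levels after TAC or between the TAC groups, and the others were added for their place in the pathway. The values of the 10 are therefore given as a description, with standard errors and intervals and with no test of their own.

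Male mice were operated at 10 to 12 weeks of age by transverse aortic constriction (TAC), a narrowing of the aortic arch that loads the left ventricle with pressure, or by Sham surgery, and the left ventricle was taken 5 weeks later. WT mice and HCN4F mice were compared, the latter carrying the knock-in allele Y527F of Hcn4, a pacemaker channel gene, in which phenylalanine replaces tyrosine. There were 4 WT-Sham, 4 HCN4F-Sham, 2 WT-TAC (replicates 2 and 3) and 4 HCN4F-TAC libraries of poly(A)-selected RNA. The strain and the zygosity were not given in the sources used here, and a base substitution cannot be seen in gene counts, so Hcn4 itself offered no check of the labels. The libraries held 22309914 to 35210939 counts, and 13.9 to 23.1% of the counts were on mitochondrial genes. The cardiomyocyte markers (Myh6, Tnni3, Ryr2, Actn2 and Pln) were all detected and summed to between 27733 and 43180 CPM (counts scaled to a common library size of 1000000). Atrial markers (Sln, Myl7, Myl4 and Bmp10) summed to between 1.24 and 5.04 CPM in 13 libraries and to 31.1 CPM in HCN4F-TAC replicate 2, so some values of Ankrd1, Cyr61, Vgll4, Amotl2 and Tead1 are also given without it.

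YAP and TAZ are transcriptional coactivators that bind no DNA themselves and act through TEAD factors, which bind short elements near their target genes. Kinases of the Hippo cascade keep YAP and TAZ out of the nucleus, angiomotins bind and retain them, and stretch or stiff matrix releases them, which makes the target genes readouts of mechanical load in heart muscle and in fibroblasts. Vestigial-like proteins bind TEADs at the same face, Vgll4 as a competitor of YAP, and Ankrd1 encodes a muscle ankyrin repeat protein of the sarcomere that is a classical gene of the loaded heart.

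The 250 bases upstream of the RefSeq start site (build GRCm38.p6) are shown for 4 of the genes, Ankrd1, Cyr61, Vgll2 and Amotl2. TEAD factors act through a short element near their targets. Sham and TAC libraries of Ankrd1 and Cyr61 did not overlap in either genotype, and neither did those of Ctgf, Tead1, Yap1 and Wwtr1. Vgll2 had the largest fold of the 10 in HCN4F, and Amotl2 is a known target with a lower mean after TAC. The stretches are given 5′ to 3′ in the direction of the gene, and capitals mark the TEAD element, GGAATG or, on the other strand, CATTCC.
Ankrd1: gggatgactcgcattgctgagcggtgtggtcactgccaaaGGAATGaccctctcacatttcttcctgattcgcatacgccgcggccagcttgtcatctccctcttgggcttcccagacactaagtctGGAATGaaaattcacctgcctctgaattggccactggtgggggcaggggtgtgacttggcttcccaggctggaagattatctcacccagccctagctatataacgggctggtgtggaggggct
Cyr61: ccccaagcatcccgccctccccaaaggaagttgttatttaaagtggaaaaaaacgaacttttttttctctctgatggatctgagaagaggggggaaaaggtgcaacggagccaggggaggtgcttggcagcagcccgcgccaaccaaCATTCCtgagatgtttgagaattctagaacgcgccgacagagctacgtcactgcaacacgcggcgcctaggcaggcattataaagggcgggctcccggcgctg
Vgll2: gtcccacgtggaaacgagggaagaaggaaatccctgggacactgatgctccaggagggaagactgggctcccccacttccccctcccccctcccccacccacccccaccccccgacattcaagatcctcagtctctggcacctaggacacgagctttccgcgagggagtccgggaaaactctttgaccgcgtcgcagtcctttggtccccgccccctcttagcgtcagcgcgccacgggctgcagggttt
Amotl2: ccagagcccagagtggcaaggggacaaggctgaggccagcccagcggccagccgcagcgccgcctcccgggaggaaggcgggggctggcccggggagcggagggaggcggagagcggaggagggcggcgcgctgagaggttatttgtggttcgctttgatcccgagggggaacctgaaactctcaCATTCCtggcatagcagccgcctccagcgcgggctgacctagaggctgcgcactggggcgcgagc

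These stretches lie at chr19:36119845-36120094 on the minus strand for Ankrd1, chr3:145649986-145650235 on the minus strand for Cyr61, chr10:52022252-52022501 on the plus strand for Vgll2 and chr9:102717554-102717803 on the plus strand for Amotl2. The search covered windows of 300 bases, from 250 before to 50 after the start. Of the 10 genes 8 had a window, with 9 windows in all since Wwtr1 had 2 start sites, and Ctgf and Tead1 had none. The element was present in 7 of the 8 genes: Ankrd1 held it at 2 places, beginning 210 and 123 bases before the start, Cyr61 103, Vgll3 63, Vgll4 82, Yap1 141, Wwtr1 136 (170 before its other start) and Amotl2 65 bases before it. Over all 32851 windows of that length, 14.7% held the element at least once and 1.36% at 2 or more places. Vgll2, with the largest fold after TAC in HCN4F, had no match, while Vgll4 and Amotl2, which did not stand apart after TAC, each had 1 match. The AP-1 element TGANTCA was in none of the 9 windows of these genes and in 7.81% of all windows, and a match or its absence describes these letters only, not binding.

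TAC libraries had the higher mean for most of the genes. The load-induced genes Ankrd1, Cyr61 and Ctgf had larger folds in both genotypes than Yap1, Wwtr1 and Tead1. For Ctgf in WT this rested on WT-TAC replicate 2 (log2-fold change 0.98, and 0.30 without it). Ankrd1, Cyr61 and Ctgf were selected on their levels in these libraries, unlike Yap1, Wwtr1 and Tead1, so nothing is read from that order. In HCN4F hearts, 9 of the 10 had a higher mean after TAC, with Vgll2 11.2-fold, Ankrd1 4.84-fold, Ctgf 3.73-fold and Cyr61 2.34-fold above Sham by the ratio of group means, while Yap1, Wwtr1 and Tead1 were 1.22-, 1.23- and 1.42-fold higher. In WT hearts 7 of the 10 had a higher mean after TAC, led by Cyr61 (3.21-fold), Vgll2 (2.12-fold, with overlapping libraries) and Ankrd1 (2.06-fold). Before TAC the libraries of the 2 genotypes overlapped in each gene but Cyr61, at a ratio of 1.88 between HCN4F-Sham and WT-Sham. After TAC the widest gaps between the genotypes were in Vgll2 (8.08-fold), Ankrd1 (2.50-fold), Vgll3 (1.66-fold) and Ctgf (1.56-fold), all higher in HCN4F-TAC, with overlapping libraries for Vgll2 and Ctgf.

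**Figure D1:**
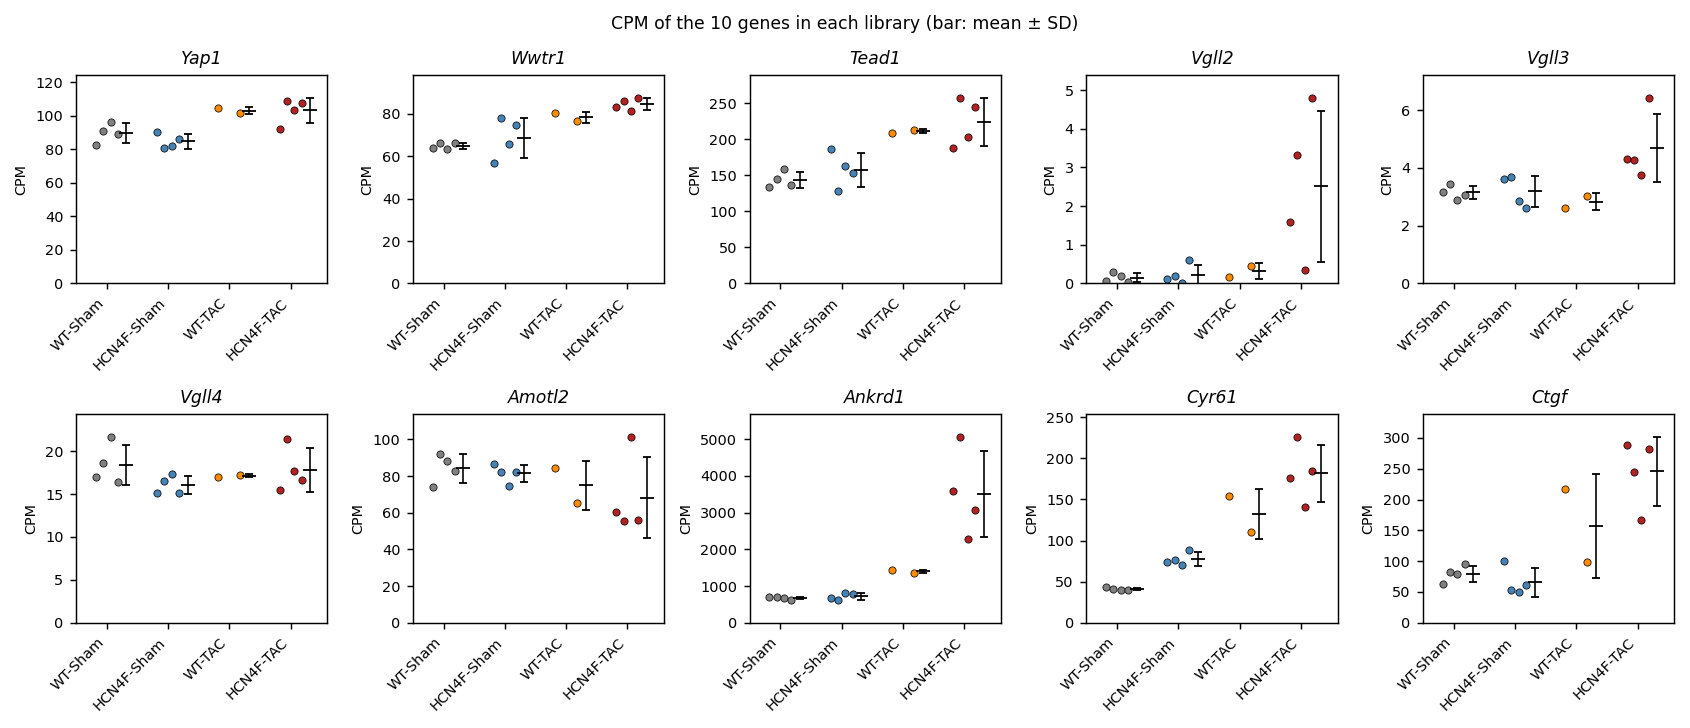
CPM of each of the 10 genes in every library, 1 panel per gene with its own linear axis from 0; points are libraries, and bars are the mean ± SD of 4 WT-Sham, 4 HCN4F-Sham, 2 WT-TAC and 4 HCN4F-TAC libraries. Ankrd1 separates the 3 levels Sham (626 to 812 CPM), WT-TAC (1364 and 1432 CPM) and HCN4F-TAC (2277 to 5059 CPM), whereas Yap1 and Vgll4 hold within narrow bands.

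The levels of the genes can be ranked against each other only per length, as CPM per kb of exonic bases in the GENCODE annotation. On that scale the order in WT-Sham was Ankrd1 (235 ± 12.8 CPM per kb, SD, n = 4), Ctgf (27.9 ± 4.55), Cyr61 (20.4 ± 0.775), Wwtr1 (13.6 ± 0.298), Amotl2 (13.4 ± 1.25), Tead1 (10.6 ± 0.842), Yap1 (9.68 ± 0.626), Vgll4 (3.41 ± 0.435), Vgll3 (0.443 ± 0.0319) and Vgll2 (0.0891 ± 0.0707). The libraries of Wwtr1 and Amotl2 overlapped, as did those of Tead1 and Yap1, and no other neighbours in that order did. Wwtr1 stood above Yap1 per length, and the vestigial-like genes were the rarest of the list. In HCN4F-TAC the first place was Ankrd1 at 1212 ± 406 CPM per kb, Cyr61 (90.1 ± 17.2) and Ctgf (85.9 ± 19.5) overlapped, and Vgll2 (1.52 ± 1.18) had a higher mean than Vgll3 (0.660 ± 0.167) with overlapping libraries.

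Yap1 encodes the coactivator YAP, and its transcript moved within a band of 80.5 to 109 CPM over all 14 libraries. It was 89.6 ± 5.79 CPM (SD, n = 4) in WT-Sham, 84.6 ± 4.50 (n = 4) in HCN4F-Sham, 103 ± 2.16 (n = 2) in WT-TAC and 103 ± 7.55 (n = 4) in HCN4F-TAC. TAC libraries lay above Sham libraries of the same genotype without overlap, by a log2-fold change of 0.20 ± 0.09 (SE) in WT and 0.28 ± 0.07 in HCN4F. Between the genotypes after TAC the log2-fold change was 0.00 ± 0.09, with a 95% interval of -0.18 to 0.19.

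Wwtr1, which encodes TAZ, behaved like Yap1 in size. Its CPM was 65.0 ± 1.42 in WT-Sham, 68.9 ± 9.43 in HCN4F-Sham, 78.4 ± 2.66 in WT-TAC and 84.6 ± 2.75 in HCN4F-TAC. The log2-fold change of TAC versus Sham was 0.27 ± 0.10 in WT and 0.30 ± 0.08 in HCN4F, again with no overlap between Sham and TAC libraries of a genotype. The ratio of Yap1 to Wwtr1 CPM was 1.38 ± 0.0947 in WT-Sham, 1.25 ± 0.238 in HCN4F-Sham, 1.31 ± 0.0170 in WT-TAC and 1.22 ± 0.0757 in HCN4F-TAC, so the balance of the 2 coactivators stayed within the spread of the Sham libraries.

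Tead1, the main TEAD factor of heart muscle, differed more after TAC than Yap1 and Wwtr1. It measured 134, 144, 159 and 136 CPM in the WT-Sham libraries and 209 and 213 CPM in the WT-TAC libraries. In HCN4F it measured 186, 128, 162 and 153 CPM after Sham surgery and 187, 257, 203 and 245 CPM after TAC. The groups did not overlap in either genotype, although the lowest HCN4F-TAC library and the highest HCN4F-Sham library nearly met. The log2-fold changes of 0.56 ± 0.14 in WT and 0.51 ± 0.11 in HCN4F were alike, and the difference between them was -0.05 with a 95% interval of -0.42 to 0.33. Between the genotypes after TAC the log2-fold change was 0.08 ± 0.14, and 0.00 without HCN4F-TAC replicate 2.

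Vgll4, the vestigial-like protein that competes with YAP for TEADs, stayed between 15.2 and 21.6 CPM in all 14 libraries, and every pair of groups overlapped. The log2-fold change of TAC versus Sham was -0.10 ± 0.13 in WT and 0.15 ± 0.11 in HCN4F, the latter 0.05 without HCN4F-TAC replicate 2. With Tead1 higher and Vgll4 level, the ratio of Tead1 to Vgll4 CPM was 7.82 ± 0.388 in WT-Sham, 9.85 ± 1.88 in HCN4F-Sham, 12.3 ± 0.0420 in WT-TAC and 12.6 ± 1.47 in HCN4F-TAC. The WT-TAC ratios (12.3 and 12.3) lay above every WT-Sham ratio (7.36 to 8.30), while the HCN4F-TAC ratios (11.5 to 14.8) overlapped the HCN4F-Sham ratios (7.72 to 12.2).

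Vgll3, another TEAD cofactor, was low and differed with TAC in HCN4F hearts. Its levels were 2.91 to 3.45 CPM in WT-Sham, 2.63 to 3.70 CPM in HCN4F-Sham, 2.63 and 3.03 CPM in WT-TAC, and 4.31, 4.28, 3.74 and 6.43 CPM in HCN4F-TAC. All 4 HCN4F-TAC libraries stood above the other 10, the third of them only just above the highest HCN4F-Sham library. The log2-fold change of TAC versus Sham was 0.56 ± 0.17 in HCN4F and -0.15 ± 0.21 in WT, and the difference between these was 0.70 ± 0.27.

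Vgll2, a cofactor best known from skeletal muscle, had few counts in most libraries. It had 2, 8, 5 and 1 counts in the WT-Sham libraries, 3, 4, 0 and 20 in HCN4F-Sham, 4 and 16 in WT-TAC, and 38, 101, 10 and 118 in HCN4F-TAC. In WT the log2-fold change of TAC versus Sham was 1.17 ± 1.33, and 0.18 without WT-TAC replicate 3, so its place among the WT folds rests on that library. In CPM, the HCN4F-TAC libraries were at 1.58, 3.33, 0.353 and 4.80, where 3 counts correspond to between 0.0859 and 0.137 CPM depending on the library. Replicate 3 of HCN4F-TAC lay inside the range of the other groups, so the groups overlapped, and the other 3 libraries lay above all others. The log2-fold change in HCN4F was 3.35 ± 0.82, and it was 2.85 without HCN4F-TAC replicate 4 and 4.69 without HCN4F-Sham replicate 4. Between the genotypes after TAC it was 2.91 ± 1.01, against only 4 and 16 counts in WT-TAC, and it ran from 2.11 under the replicate block to 3.89 without WT-TAC replicate 3. In Sham hearts the log2-fold change between genotypes was 0.72 ± 1.20, and it was -0.62 without HCN4F-Sham replicate 4, so no direction can be given there. The 12 skeletal muscle markers, among them Myh1, Myh4, Pax7 and Myod1, all had a mean under 1 CPM and summed to 1.58 to 3.10 CPM over all libraries.

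Amotl2, an angiomotin relative that binds YAP and is itself a target of it, was the only 1 of the 10 with a lower mean after TAC in both genotypes, and its Sham and TAC libraries overlapped in each. In WT the log2-fold change was -0.17 ± 0.20, and leaving out WT-TAC replicate 2 or 3 gave -0.36 or 0.00, so no direction can be given there. It measured 74.2 to 92.2 CPM in WT-Sham, 74.8 to 86.6 CPM in HCN4F-Sham, 84.5 and 65.6 CPM in WT-TAC, and 60.3, 55.5, 101 and 56.0 CPM in HCN4F-TAC. The 4 HCN4F-TAC values split, with 3 below every Sham library and the third replicate above them all. The log2-fold change in HCN4F was -0.25 ± 0.16 with all libraries, -0.51 without HCN4F-TAC replicate 3 and -0.17 without HCN4F-TAC replicate 2.

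**Figure D2:**
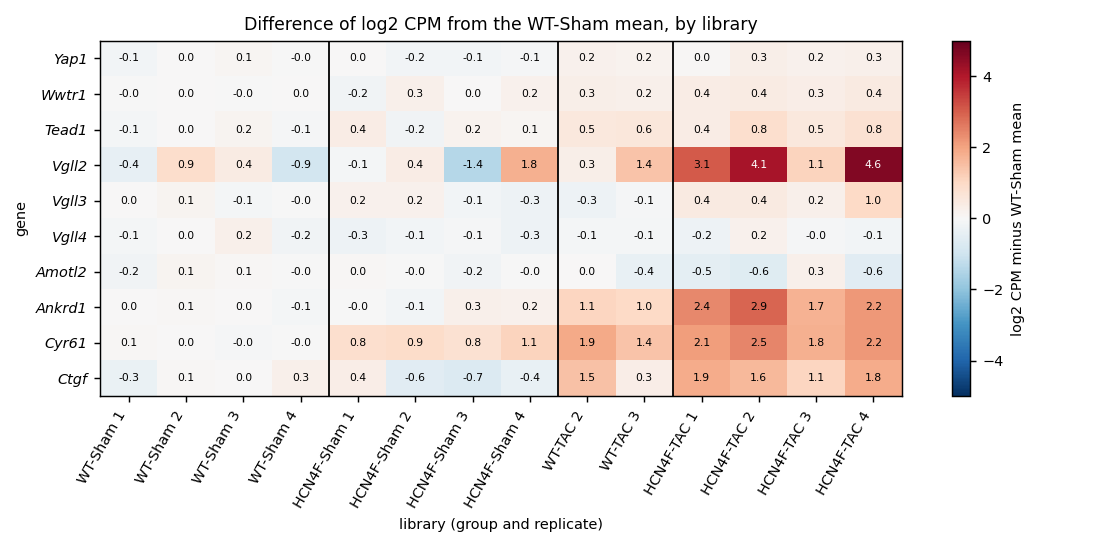
Difference of log2 CPM from the WT-Sham mean for the 10 genes (lines) in the 14 libraries (columns), with red for higher and blue for lower values and the difference printed in each cell. The deepest red lies in Vgll2, Ankrd1, Cyr61 and Ctgf, and HCN4F-TAC replicate 3 is the palest of its group for these 4.

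Ankrd1 encodes a titin-associated muscle ankyrin repeat protein and was the most abundant of the 10 by a wide margin. It measured 693, 713, 679 and 626 CPM in WT-Sham, and 671, 624, 812 and 786 CPM in HCN4F-Sham. After TAC it measured 1432 and 1364 CPM in WT and 3586, 5059, 2277 and 3070 CPM in HCN4F. The 2 Sham groups overlapped, and WT-TAC lay above both of them and below every HCN4F-TAC library. The log2-fold change of TAC versus Sham was 1.04 ± 0.21 in WT and 2.27 ± 0.19 in HCN4F, which differ by 1.23 ± 0.29. Without HCN4F-TAC replicate 2 the change in HCN4F was 2.04 and the difference 0.98. Between genotypes it was 0.09 ± 0.18 in Sham and 1.32 ± 0.23 in TAC, the latter 1.08 without HCN4F-TAC replicate 2. The ratio of Ankrd1 to Tead1 CPM was 4.74 ± 0.391 in WT-Sham, 4.66 ± 0.708 in HCN4F-Sham, 6.64 ± 0.314 in WT-TAC and 15.6 ± 4.39 in HCN4F-TAC.

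Cyr61, which encodes the secreted matricellular protein CCN1, differed already in Sham hearts. It measured 43.4, 41.4, 40.0 and 40.2 CPM in WT-Sham and 74.2, 77.0, 70.5 and 89.1 CPM in HCN4F-Sham. After TAC it measured 154 and 111 CPM in WT and 176, 226, 141 and 184 CPM in HCN4F. All 4 HCN4F-Sham libraries lay above all 4 WT-Sham libraries and below every TAC library, while the 2 TAC groups overlapped. The log2-fold change of TAC versus Sham was 1.68 ± 0.15 in WT and 1.23 ± 0.13 in HCN4F, so the difference between genotypes ran opposite to that of Ankrd1, at -0.45 ± 0.20. Without HCN4F-TAC replicate 2 the change in HCN4F was 1.10 and the difference -0.59, and leaving out WT-TAC replicate 2 or 3 gave a difference of -0.20 or -0.67. Cyr61 started from a higher level in HCN4F and reached a higher mean after TAC, by 0.46 ± 0.16 on the log2 scale; leaving out replicate 2 of WT-TAC gave 0.72, and leaving out replicate 3 gave 0.24.

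Cyr61 belongs to the genes that respond within minutes to serum, stretch or tissue handling, and the levels of 11 other early-response genes are given beside it. Their summed CPM was 332 to 375 in WT-Sham, 490 to 758 in HCN4F-Sham, 588 and 812 in WT-TAC and 683 to 1005 in HCN4F-TAC. For 9 of the 11 the HCN4F-Sham median exceeded that of WT-Sham, and for 5 of them every HCN4F-Sham library lay above every WT-Sham library. Egr1 had the widest gap, at 9.56 to 18.5 CPM in WT-Sham and 109 to 206 CPM in HCN4F-Sham. Their part in the Cyr61 difference was not tested.

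**Figure D3:**
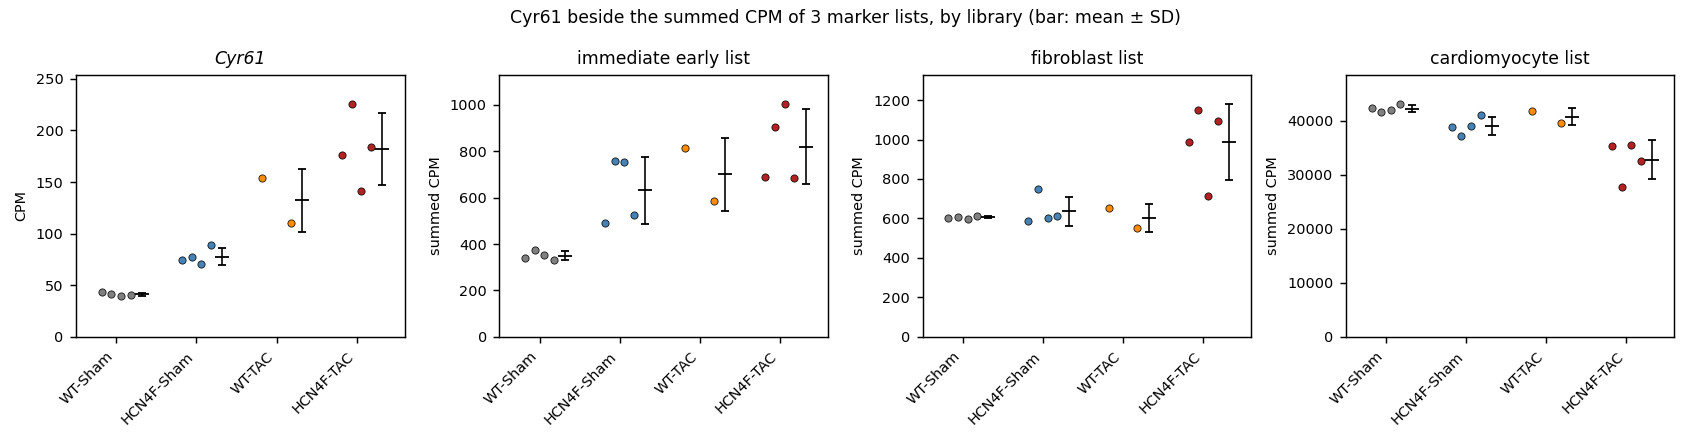
CPM of Cyr61 and summed CPM of the immediate early, fibroblast and cardiomyocyte lists in every library, on linear axes from 0, with bars for the mean ± SD. Cyr61 and the immediate early list are both lowest in the 4 WT-Sham libraries, and the fibroblast sum has its highest mean in HCN4F-TAC (714 to 1151 CPM), whose lowest library lies within the HCN4F-Sham range (585 to 747 CPM).

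Ctgf, the related matricellular gene CCN2, varied widely within groups. It measured 63.0, 81.7, 79.4 and 94.7 CPM in WT-Sham and 101, 53.2, 49.3 and 60.6 CPM in HCN4F-Sham. After TAC it measured 217 and 98.0 CPM in WT and 288, 244, 167 and 283 CPM in HCN4F. Every TAC library lay above the Sham libraries of its genotype, in WT by the margin of 98.0 against 94.7 CPM. The log2-fold change was 1.90 ± 0.30 in HCN4F and 0.98 ± 0.34 in WT, the latter 0.30 when replicate 2 of WT-TAC was left out and 1.45 when replicate 3 was. The gap between the genotypes after TAC, 0.64 ± 0.36, likewise was 1.32 and 0.18 without these libraries, so its size was set by the 2 WT-TAC values. The ratio of Cyr61 to Ctgf CPM was 0.531 ± 0.112 in WT-Sham and 1.27 ± 0.356 in HCN4F-Sham, with no overlap between 0.425 to 0.689 and 0.738 to 1.47. After TAC the order of the means was the other way round, 0.918 ± 0.298 in WT-TAC and 0.758 ± 0.151 in HCN4F-TAC, with overlapping libraries. Ctgf shares 665 exonic bases, 23.2% of its own, with Gm15270 on the opposite strand, and whether counting used strand was not given in the sources used here, so reads there cannot be told apart. Gm15270 itself had 49 to 108 counts per library against 1165 to 7421 for Ctgf.

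In bulk tissue, fewer cells of a type and less RNA per cell cannot be told apart. Fibroblast markers (6 of 6 detected) summed to 599 to 613 CPM in WT-Sham, 585 to 747 in HCN4F-Sham, 553 and 652 in WT-TAC and 714 to 1151 in HCN4F-TAC, and all 6 were higher in every HCN4F-TAC library than in every WT-TAC library. Between HCN4F-Sham and HCN4F-TAC, 2 of the 6 did not overlap, Col1a1 (medians 143 and 367 CPM) and Col1a2 (144 and 308 CPM). The others overlapped, with medians of 264 and 279 CPM for Dcn, 34.7 and 36.8 for Pdgfra, 26.1 and 39.2 for Lum, and 7.91 and 8.78 for Tcf21. Macrophage markers (5 of 5 detected) summed to 102 to 117 CPM in WT-Sham, 98.8 to 128 in HCN4F-Sham, 99.6 and 96.3 in WT-TAC and 118, 154, 96.9 and 157 in HCN4F-TAC, where replicate 3 was the lowest. The cardiomyocyte sum was 41620 to 43180 CPM in WT-Sham, 37142 to 41055 in HCN4F-Sham, 39623 and 41883 in WT-TAC and 27733 to 35516 in HCN4F-TAC. Myh6 was the largest part of this sum, and Actn2 went the other way, at 1929 to 2270 CPM in HCN4F-Sham and 2506 to 2718 CPM in HCN4F-TAC. HCN4F-TAC replicate 3, which had the lowest value of its group for 6 of the 10 genes (Ankrd1, Cyr61, Ctgf, Vgll2, Vgll3 and Wwtr1) and the highest for Amotl2, also had the lowest fibroblast sum of the group, 714 CPM against 989 to 1151. The share of counts on mitochondrial genes was 19.6 to 23.1% in WT-Sham, 17.1 to 21.4% in HCN4F-Sham, 18.4 and 20.0% in WT-TAC and 13.9 to 18.6% in HCN4F-TAC. The part of the cell markers and of the mitochondrial share in these differences was not tested.

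**Figure D4:**
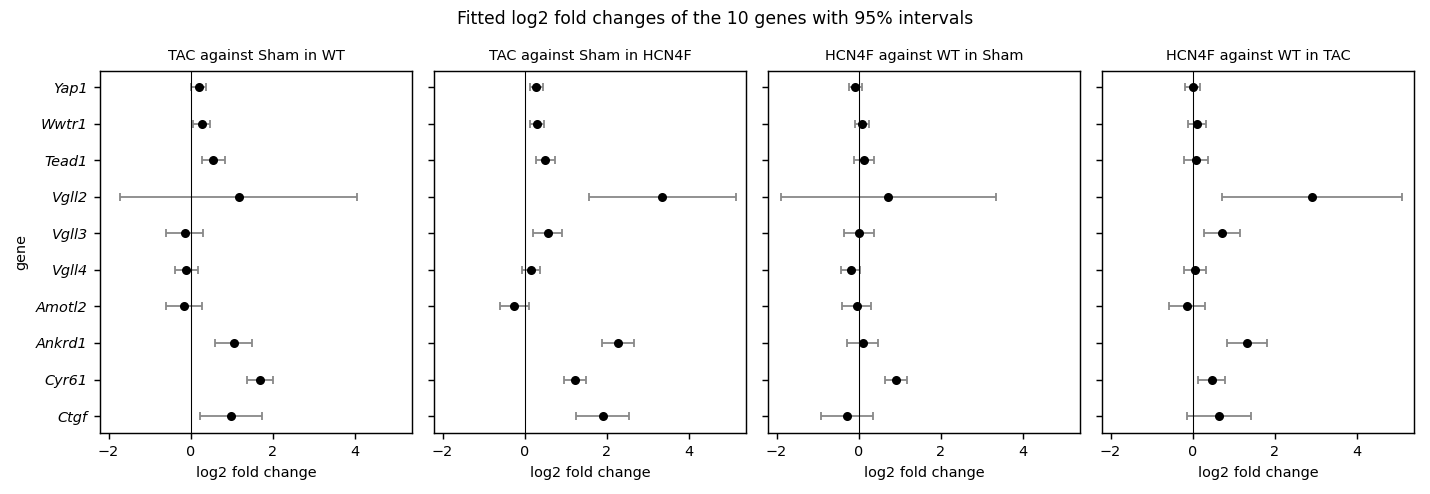
Fitted log2-fold changes of the 10 genes with 95% intervals in 4 comparisons, on 1 shared linear axis, with a line at 0. Vgll2 has the widest intervals, and in the Sham comparison of genotypes Cyr61 (0.91) is the gene whose interval stands clear of 0.

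Counted by an adjusted p under 0.05 in edgeR's quasi-likelihood test over all 15292 genes, 3 of the 10 passed for TAC versus Sham in WT (Ankrd1, Cyr61 and Tead1), where 4.54% of all genes passed. That share was 694 genes, and 163 or 160 genes passed without WT-Sham replicate 1 or 4. In HCN4F 8 passed, all but Vgll4 and Amotl2, where 13.6% of all genes passed. For HCN4F versus WT, 1 passed in Sham (Cyr61, 0.471% of all genes) and 1 in TAC (Ankrd1, 0.111%). With a log2-fold change above 1 or below -1 required as well, the counts were 2 in WT (0.706% of all genes), 4 in HCN4F (2.75%), 0 in Sham (0.209%) and 1 in TAC (0.0719%). Since these contrasts were used to choose genes, nothing is read from the counts. The WT count of 3 was 1 under the replicate block and without WT-Sham replicate 1, WT-Sham replicate 4 or either WT-TAC library, and Ankrd1 passed in 7 and Tead1 in 6 of 12 other settings. The HCN4F count of 8 was 4 with edgeR on the compared groups, 6 without HCN4F-Sham replicate 3, HCN4F-TAC replicate 2 or HCN4F-TAC replicate 4, and 9 without HCN4F-TAC replicate 3, and Vgll3 passed in 7 and Wwtr1 in 10 of 14 other settings. Between the TAC groups 4 of the 10 passed without HCN4F-TAC replicate 3, where the genes called in all went from 17 to 454. For Ankrd1 between the TAC groups the rule was met in 4 of 12 other settings, and its log2-fold change stayed between 1.08 and 1.48 in all 12. For the difference between genotypes in the TAC response, 0 of the 10 and 0% of all genes passed in edgeR, 1418 genes had an unadjusted p under 0.05, 3 of the 10 among them, and DESeq2 called 33 genes, 1 of the 10 among them, as edgeR did 78 and 1 without HCN4F-TAC replicate 3. The median log2-fold change of the 10 was 0.41 in WT and 0.53 in HCN4F for TAC versus Sham, and 0.05 in Sham and 0.29 in TAC for HCN4F versus WT, beside -0.02, -0.01, 0.00 and 0.00 over all genes tested.

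The pathway around the 10 genes was read from 40 other genes, 38 of which were tested (Wwc1 and Vgll1 were below the filter). These 40 were chosen with earlier results of these data known, so the counts describe the list and give no independent support. In WT hearts TAC raised 2 of the 38 and lowered none, and in HCN4F hearts it raised 11 and lowered 1, at an adjusted p under 0.05 over all genes tested in edgeR's quasi-likelihood test, where 4.54% and 13.6% of all genes passed. The WT counts depended on the tool and on the libraries fitted. DESeq2 called 7 of the 38 and 1194 of 13626 genes, and edgeR on the compared groups alone called 11 of the 38 and 2009 of 14752 genes. The median log2-fold change of the 38 was 0.15 in WT and 0.15 in HCN4F, beside -0.02 and -0.01 over all genes. None of the 38 passed between genotypes or for the difference in the TAC response: 10 had an unadjusted p under 0.05 in Sham, 11 in TAC and 8 for the difference, beside 2323, 1904 and 1418 of all 15292 genes, and DESeq2 called 2, 2 and 0.

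Among 15 tested Hippo kinases and adaptors, Mob1b, the coactivator of LATS kinases, rose in both genotypes. It went from a mean of 17.3 to 27.9 CPM in WT (log2-fold change 0.69 ± 0.13, adjusted p = 0.01055) and from 20.0 to 31.3 CPM in HCN4F (0.64 ± 0.11, adjusted p = 0.001038), by edgeR's quasi-likelihood test. In WT the call was lost without WT-TAC replicate 3, at an adjusted p of 0.2282 in the same test. Taok1, a kinase upstream of the cascade, rose in WT from 75.7 to 95.5 CPM (0.33 ± 0.09, adjusted p = 0.03675 in edgeR). In HCN4F, Mob1a (0.23 ± 0.07), the kinase Taok3 (0.38 ± 0.11) and the scaffold Wwc2 (0.25 ± 0.08) rose, at adjusted p of 0.04822, 0.0328 and 0.03871 in edgeR. These 3 and Taok1 were small changes whose calls were lost in 6 to 9 of the 12 or 14 settings run. Those of the others with the highest mean CPM, a scale that grows with gene length, did not pass in either genotype: the kinase Map4k4 had log2-fold changes of 0.28 in WT and 0.21 in HCN4F, Nf2, which encodes merlin, 0.25 and 0.15, Taok2 -0.12 and -0.11, and the phosphatase Ptpn14 -0.12 and -0.08.

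Of the 2 angiomotins, Amot rose in HCN4F hearts, the opposite side of 0 from Amotl2. It measured 10.3 to 14.9 CPM in HCN4F-Sham and 24.0, 22.3, 16.6 and 28.9 CPM in HCN4F-TAC, a log2-fold change of 0.89 ± 0.15 (adjusted p = 0.001429, edgeR's quasi-likelihood test). In WT, Amot had a log2-fold change of 0.40 ± 0.18 and did not pass. Amotl1, at a mean of 111 CPM in WT-Sham, had log2-fold changes of -0.01 in WT and -0.11 in HCN4F. The other TEAD genes did not follow Tead1: Tead2 had -0.07 and -0.17, Tead3 0.03 and -0.03, and Tead4 -0.21 and 0.13, in WT and HCN4F, and none passed.

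The 16 further genes known as YAP/TAZ targets in other cells gave a mixed picture, with 0 that passed in WT, and 4 that rose and 1 that fell in HCN4F. Tgfb2, which encodes a growth factor of the TGF-beta family, measured 7.90, 9.68, 11.5 and 12.7 CPM in HCN4F-Sham and 30.0, 24.5, 18.2 and 24.7 CPM in HCN4F-TAC, a log2-fold change of 1.21 ± 0.17 (adjusted p = 0.0003044, edgeR's quasi-likelihood test). The kinase gene Nuak2 (0.71 ± 0.15, adjusted p = 0.005216), the matrix gene Ccdc80 (0.42 ± 0.09, adjusted p = 0.00424) and the ferlin Myof (0.40 ± 0.11, adjusted p = 0.02193) rose by the same test in edgeR. Gadd45a, a stress-response gene, fell by 0.62 ± 0.18 on the log2 scale from a mean of 22.1 to 14.3 CPM (adjusted p = 0.0285 in edgeR), with overlapping groups. Its mean was 13.8 CPM in WT-Sham and 14.5 CPM in WT-TAC, so HCN4F-Sham was the group with the highest mean. The Myof call was lost in 4 and the Gadd45a call in 7 of 14 other settings. Those of the rest with the highest mean CPM did not pass: Arhgef17 had log2-fold changes of 0.26 in WT and -0.23 in HCN4F, Axl 0.11 and 0.19, Crim1 0.35 and -0.02, and Asap1 0.12 and 0.12.

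The sarcomere relatives of Ankrd1 had the largest increases among the 38 in HCN4F hearts. Ankrd23 measured 141, 76.2, 66.4 and 69.2 CPM in HCN4F-Sham and 242, 382, 263 and 339 CPM in HCN4F-TAC, a log2-fold change of 1.80 ± 0.24 (adjusted p = 0.0005978, edgeR's quasi-likelihood test). Ankrd2 was scarce, with 0.301, 0.593, 0.217 and 0.332 CPM in HCN4F-Sham and 1.99, 1.75, 0.530 and 1.26 CPM in HCN4F-TAC (1.96 ± 0.39, adjusted p = 0.003279 in edgeR), and replicate 3 lay within the Sham range. In WT hearts the log2-fold changes of Ankrd23 and Ankrd2 were 0.97 ± 0.28 and 0.57 ± 0.56, and neither passed.

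**Figure D5:**
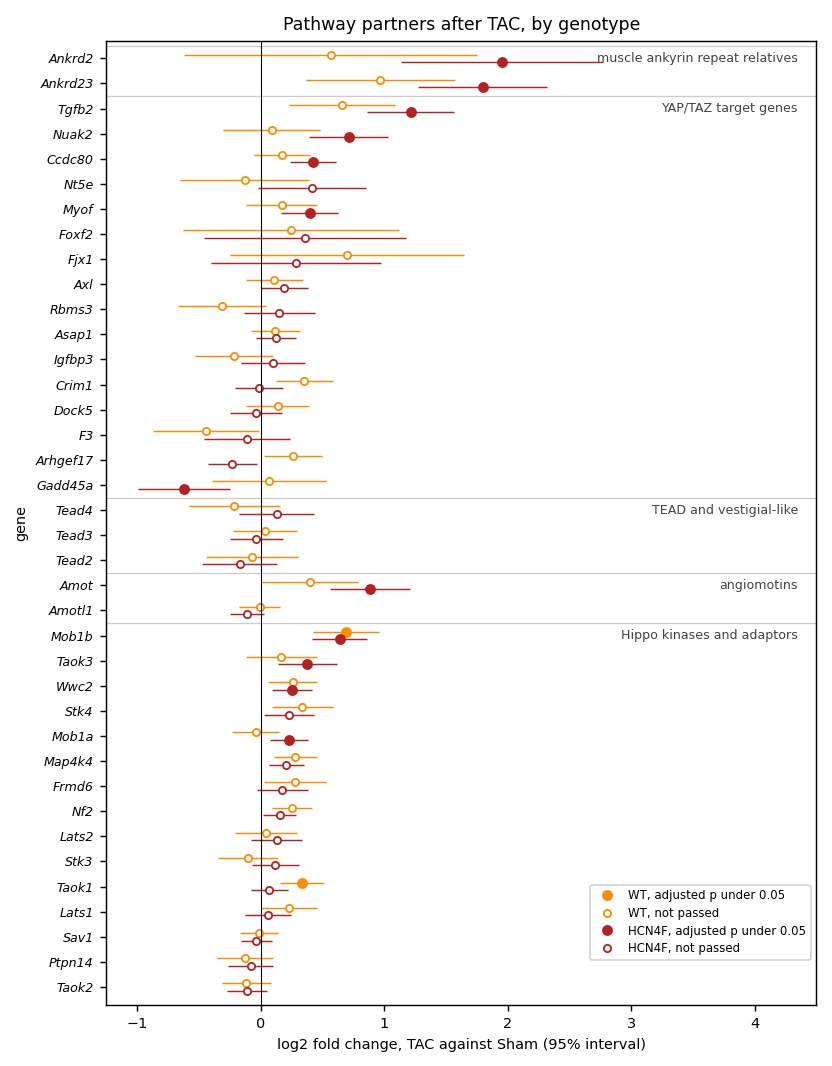
Log2-fold changes of TAC versus Sham with 95% intervals for the 38 tested pathway partners, in WT (orange) and HCN4F (red); filled points had an adjusted p under 0.05. The filled points are 2 in WT and 12 in HCN4F, with Ankrd2 (1.96), Ankrd23 (1.80) and Tgfb2 (1.21) farthest to the right.

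The genes nearest to Ankrd1, Cyr61, Ctgf and Vgll2 in their profile over the 14 libraries were taken from 12564 genes with a mean of at least 1 CPM, by the root mean square difference of log2 CPM after each profile was centred on its WT-Sham mean. This likeness is a description, and the genes share libraries, depth and scaling. For Ankrd1 they were Synpo2l (0.289), Postn (0.292) and Col8a1 (0.348), beside a median of 1.33 over all genes. Postn, which encodes the matricellular protein periostin, averaged 19.1 CPM in WT-Sham and 22.7 in HCN4F-Sham, and 30.7 in WT-TAC and 95.3 in HCN4F-TAC. For Cyr61 they included Col8a1 (0.348) and Myc (0.420), beside a median of 1.40, and Col8a1 thus stood near both genes. For Ctgf they were Abra (0.338), Rcan1 (0.356) and Nuak1 (0.370), beside a median of 1.02. Abra, which encodes an actin-binding protein of striated muscle, averaged 68.8, 46.4, 140 and 201 CPM in the same order, with HCN4F-Sham at the bottom as for Ctgf. For Vgll2 the nearest included Ltbp2 (0.728) and Col12a1 (0.833), both farther away, beside a median of 2.05.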

How the data were processed

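RNA from 14 mouse left ventricles was sequenced after poly(A) selection. The authors deposited 1 table of raw counts per gene, aligned to GRCm38 per the submitters' processing notes; the aligner, the counting tool, the annotation and the use of strand were not given in the sources used here. Groups and replicate numbers came from the sample labels, and 2 further columns headed as TAC and WT that matched no sample were not used, so that WT-TAC has 2 libraries here. The study's methods call the replicates biological. The 10 genes, the 40 pathway partners and the marker lists were chosen with earlier results of these data known.

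Genes were filtered by filterByExpr by group (15292 of 49315 kept), scaled by TMM and fitted in 1 model with a mean per group over all 14 libraries with edgeR 4.0.16 in R 4.3.3 (glmQLFit with the robust option, glmQLFTest, Benjamini-Hochberg adjustment over all genes tested). CPM are counts per 1000000 of the scaled library size; log2 CPM used a prior count of 2. Standard errors and 95% intervals came from the same fit, and they cover the spread between libraries. A count of 3 was taken as the floor. Genes named were all 10, each partner with an adjusted p under 0.05 and up to 4 more of each sub-list by mean CPM, and the 3 nearest profiles of Ankrd1, Cyr61, Ctgf and Vgll2, of which some are not reported here. Alternatives were DESeq2 1.42.0 on all groups, its size factors, no filter, a mean CPM of at least 1, the compared groups alone, a replicate block, an added fold rule, and each library left out. Gene positions and exonic lengths came from GENCODE mouse release 21 (99.5% of identifiers found), and promoter windows from RefSeq. Protein sequences were not analysed here. Scripts were tested on simulated data. Plots used matplotlib 3.10.9 (Python 3.11.15).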

Additional observations from a re-analysis of the deposited data

Results flagged for a closer look

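Amotl2 in HCN4F-TAC replicate 3 stood apart from its group: at 101 CPM its gap to the nearest library took a share of 0.895 of the range of the 4 libraries, above Dixon's 95% critical value for 4 values. In all, 30 sets of 4 libraries were looked at, of which chance marks about 1 in 20, and 1 was marked.

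The TAC response of Vgll3 took opposite signs in the 2 genotypes, since all 4 HCN4F-TAC libraries lay above the HCN4F-Sham mean and both WT-TAC libraries lay below the WT-Sham mean. The difference between the genotypes was 0.70 on the log2 scale. No gene passed the test of that difference in edgeR at an adjusted p under 0.05, and 20 responses were looked at.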

How the results depend on the processing

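The count of pathway partners past an adjusted p under 0.05 for TAC versus Sham in WT was 2, beside 694 of all genes, and depended most on the processing. It was 0 with the fold rule added (108 of all genes), 7 with DESeq2 on all groups (1194) and 11 with edgeR on the compared groups (2009). Without HCN4F-Sham replicate 1 it was 5, beside 904 of all genes. In HCN4F the 12, beside 2081 of all genes, became 3 with the fold rule (420 of all genes). Without HCN4F-TAC replicate 4 it was 7, the fewest with a library left out, beside 1522 of all genes. Between genotypes in Sham the 0, beside 72 of all genes, became 2 with DESeq2 (Gadd45a and Taok1, beside 334) and 1 on the compared groups (Gadd45a, beside 106). It reached 4 without HCN4F-Sham replicate 1, beside 567 of all genes. In TAC the 0, beside 17 of all genes, became 2 with DESeq2 (Ccdc80 and Tgfb2, beside 230) and 2 with no filter (Ankrd2 and Ccdc80, beside 146). It reached 4 without HCN4F-TAC replicate 3, beside 454 of all genes. The interaction stayed at 0 in all settings run. The replicate block gave 2, 10, 0, 0 and 0 partners in these 5 comparisons, beside 225, 1977, 41, 8 and 0 of all genes. Same-numbered libraries correlated by -0.12 to 0.16 and other-numbered libraries by -0.24 to 0.20, so no pairing by number was visible. Among the partners called, Mob1b (in HCN4F), Amot, Ccdc80, Nuak2, Tgfb2, Ankrd2 and Ankrd23 kept the call in HCN4F in all settings run, while Mob1a (adjusted p up to 0.1374), Wwc2 (0.08862), Taok3 (0.1129), Myof (0.08505) and Gadd45a (0.087) in HCN4F and Taok1 (0.2907) in WT lost it in some, down to 1 library left out: Mob1a without HCN4F-Sham 1 or 3 or HCN4F-TAC 1, 2 or 4 (0.09653 to 0.1194), Wwc2 without HCN4F-Sham 2, 3 or 4 or any HCN4F-TAC library (0.05387 to 0.08862), Taok3 without HCN4F-Sham 1, 3 or 4 or HCN4F-TAC 2 or 4 (0.06083 to 0.1129), Myof without HCN4F-Sham 1 or HCN4F-TAC 1 or 4 (0.0551 to 0.07244), Gadd45a without HCN4F-Sham 1, 2 or 3 or HCN4F-TAC 1, 2 or 4 (0.05118 to 0.087), Taok1 without WT-Sham 1, 2 or 4 or either WT-TAC library (0.05859 to 0.2907), with these adjusted p from edgeR. No call changed sign in any setting run. With 2 WT-TAC libraries, values that involve them are the least certain; a library left alone there is assumed to vary like the other groups. The causes were not tested.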
